A study of Mus musculus with 6 samples.

Results

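The Cyp3a family of the mouse was followed by RNA-seq in cultured damaged hepatocytes (dHeps). Its members were chosen by gene symbol as Cyp3a11, Cyp3a13, Cyp3a16, Cyp3a25, Cyp3a41a, Cyp3a41b, Cyp3a44, Cyp3a57 and Cyp3a59, which are 9 of the 52323 genes of the count table. The cells came from the livers of AAV-TBG-Cre:Rosa-LSL-tdTomato mice injured with carbon tetrachloride (CCl4), and all groups shared this genotype and injury. In these mice a viral vector carries Cre under TBG, a hepatocyte promoter, and Cre switches on the red reporter tdTomato, so the mark follows hepatocytes and their descendants. The study's methods give such mice as young adults when they received the vector, before the injury. A sort on tdTomato before culture is not given in the sources used here. The cells were kept in serum-free hepatocyte maintenance medium until day 16 with DMSO (the solvent), with the 3C cocktail or with the 5C cocktail, and each group had 2 libraries. The 3C cocktail consists of CID755673 at 50 µM, which inhibits protein kinase D, the kinase inhibitor GSK429286A at 2 µM, and ETC-1002 at 5 µM, which inhibits ATP citrate lyase. The 5C cocktail adds, to these compounds at the same concentrations, the plant glycoside salidroside at 5 µM and forskolin at 2 µM, which activates adenylate cyclase. In these 6 libraries the effects of salidroside and of forskolin cannot be told apart, because they were added together. The study also left out each compound of 5C in turn, in experiments that are not used here. The study's methods describe replicates in general as biological, but neither they nor the labels say whether the libraries of a group came from separate animals or cultures, so the p-values measure only the spread between these libraries.

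CYP3A enzymes are heme-containing monooxygenases of the endoplasmic reticulum that oxidize drugs, steroids and bile acids in liver and intestine. They receive electrons from NADPH-cytochrome P450 oxidoreductase (Por) and cytochrome b5 (Cyb5a). Their genes are classical targets of the xenobiotic receptors PXR (Nr1i2) and CAR (Nr1i3), and their basal transcription in liver depends on hepatocyte factors such as HNF4A. Cyp3a11 is the main Cyp3a gene of the adult mouse liver and is often used as the mouse counterpart of human CYP3A4. Cyp3a13 is expressed in liver and intestine, Cyp3a16 is known from the fetal and neonatal liver, and Cyp3a41a, Cyp3a41b and Cyp3a44 are known as genes of the female liver.

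All members lie on chromosome 5 (GRCm39). Cyp3a13 stands alone at chr5:137891193-137919882 on the minus strand. The other 8 members form a cluster of 768.0 kb that runs from Cyp3a57 (chr5:145282089-145327736, plus strand) to Cyp3a59 (chr5:146016067-146050097, plus strand). Between them, all on the minus strand, lie Cyp3a16 (chr5:145373119-145406533), Cyp3a41b (chr5:145495474-145521540), Cyp3a41a (chr5:145630859-145656946), Cyp3a44 (chr5:145710793-145742686), Cyp3a11 (chr5:145791236-145816867) and Cyp3a25 (chr5:145913516-145946432). Their coding sequences were 1512 or 1515 bases long and fell into a pair of close groups. Cyp3a11 was 94.9% identical to Cyp3a44, 95.2% to Cyp3a41a and 92.8% to Cyp3a16 in coding sequence. Cyp3a25 was 97.5% identical to Cyp3a59 and 93.9% to Cyp3a57, but only 76.1% to Cyp3a11. Cyp3a13 was between 75.2% and 76.8% identical to each of the others.

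This likeness limits how far reads can be assigned. The share of distinct 50-base words of a gene's transcripts found in other genes' transcripts too was 98.9% for Cyp3a41a and 93.5% for Cyp3a41b, mostly with each other, 27.5% for Cyp3a44, 24.2% for Cyp3a59 and 11.8% for Cyp3a16. Members at or above 10% are treated as uncertain. The share was 8.63% for Cyp3a57, 6.81% for Cyp3a25, 6.13% for Cyp3a11 and 0 for Cyp3a13. Words were pooled over all annotated transcripts, 27 for Cyp3a25 (8948 words) and 10 for Cyp3a11 (5534), against 4 for Cyp3a59 (2592). More transcripts can add words that are not shared and so lower the share. In number, 609 words of Cyp3a25, 339 of Cyp3a11 and 628 of Cyp3a59 were shared. A share under 10% therefore does not show that reads of Cyp3a25 or Cyp3a11 were safely assigned. Of the words of Cyp3a59, 21.8% occurred in Cyp3a25, and reads from those stretches cannot be told apart between these genes. How reads with several matches were counted is not given in the sources used here. Cyp3a13 overlapped 2 annotated genes, of which the antisense Gm36551 was listed at 0 in every library and the pseudogene Gm15502 reached 62 estimated counts.

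The upstream sequences show how the same groups look at their starts, and they place the members with and without signal side by side. The 200 bases before the RefSeq start are printed for Cyp3a11 and the relatives Cyp3a41a and Cyp3a44, for Cyp3a25 and the relatives Cyp3a59 and Cyp3a57, and for Cyp3a13. They are taken from RefSeq promoter windows (table build GRCm38.p6) and were placed on GRCm39 by an exact match, with coordinates and gene strand in parentheses. Each reads 5′ to 3′ towards the start of the gene. Capitals mark the FOXA word TGTTTAC, the HNF4A word CAAAGTCCA, the nuclear receptor half-sites AGGTCA and AGTTCA and the TATA word TATAAA, on either strand.
Cyp3a11 (chr5:145816665-145816864, minus strand): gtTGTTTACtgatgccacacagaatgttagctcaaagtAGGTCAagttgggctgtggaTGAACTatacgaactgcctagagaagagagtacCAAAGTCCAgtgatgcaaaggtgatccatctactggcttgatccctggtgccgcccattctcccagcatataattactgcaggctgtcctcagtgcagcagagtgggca
Cyp3a41a (chr5:145656947-145657146, minus strand): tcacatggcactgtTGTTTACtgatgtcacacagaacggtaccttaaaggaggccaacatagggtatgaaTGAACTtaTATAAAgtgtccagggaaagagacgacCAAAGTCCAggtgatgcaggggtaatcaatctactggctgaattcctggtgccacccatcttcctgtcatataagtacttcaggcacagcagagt
Cyp3a44 (chr5:145742685-145742884, minus strand): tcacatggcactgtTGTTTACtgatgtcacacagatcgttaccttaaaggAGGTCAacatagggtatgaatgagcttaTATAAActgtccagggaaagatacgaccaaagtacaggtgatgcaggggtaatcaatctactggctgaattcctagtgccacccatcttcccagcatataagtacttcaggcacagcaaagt
Cyp3a25 (chr5:145946429-145946628, minus strand): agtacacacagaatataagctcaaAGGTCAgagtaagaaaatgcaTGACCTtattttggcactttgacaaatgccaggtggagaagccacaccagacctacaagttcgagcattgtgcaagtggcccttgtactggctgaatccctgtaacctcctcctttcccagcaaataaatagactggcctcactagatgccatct
Cyp3a59 (chr5:146015868-146016067, plus strand): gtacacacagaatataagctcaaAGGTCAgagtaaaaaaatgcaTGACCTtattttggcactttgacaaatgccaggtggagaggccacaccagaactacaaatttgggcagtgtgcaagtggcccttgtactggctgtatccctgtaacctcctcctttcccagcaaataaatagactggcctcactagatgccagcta
Cyp3a57 (chr5:145281879-145282078, plus strand): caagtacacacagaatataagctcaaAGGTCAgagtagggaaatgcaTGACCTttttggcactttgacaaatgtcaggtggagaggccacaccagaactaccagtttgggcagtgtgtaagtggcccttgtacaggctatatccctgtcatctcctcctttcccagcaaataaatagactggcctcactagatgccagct
Cyp3a13 (chr5:137919882-137920081, minus strand): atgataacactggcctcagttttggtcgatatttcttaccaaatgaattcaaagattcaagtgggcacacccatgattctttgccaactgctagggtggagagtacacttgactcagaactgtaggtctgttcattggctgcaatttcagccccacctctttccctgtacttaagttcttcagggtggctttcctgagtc

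In the full windows, from 250 bases before to 50 bases after the start, the FOXA word occurred in 5 of 9 members (Cyp3a16, Cyp3a41a, Cyp3a41b, Cyp3a44 and Cyp3a11), against 3.65% of the 32851 promoter windows of the table. The HNF4A word occurred in 4 members, Cyp3a11, Cyp3a16, Cyp3a41a and Cyp3a41b, against 0.475% of windows, and in Cyp3a11 it lay at bases -109 to -101. AGGTCA occurred in Cyp3a57, Cyp3a44, Cyp3a11, Cyp3a25 and Cyp3a59, against 16.3% of windows, and in Cyp3a25, Cyp3a59 and Cyp3a57 it was present once on each strand. AGTTCA occurred in Cyp3a11, Cyp3a41a and Cyp3a41b, against 14.0% of windows. TATAAA was found in 5 members, against 13.6% of windows, and in Cyp3a11 it lay at bases -234 to -229, outside the stretch printed. The C/EBP word TTGCNNAA was found in Cyp3a25 alone, against 10.8% of windows. The HNF1 word (GTTAAT and ATTAAC with 1 base between them) and the PXR words DR3 (AGTTCA repeated after 3 bases) and ER6 (TGAACT and, after 6 bases, AGGTCA) occurred in none of the 9 windows, and DR3 and ER6 occurred in 0 windows of the whole table. The DR3 and ER6 words contain the half-sites. These words are matches of letters, with both strands searched, and are not measured binding sites. The windows of the members are not independent of one another. Over the 250 bases before the start, Cyp3a16, Cyp3a41a, Cyp3a41b and Cyp3a44 were 90.9% to 99.6% identical to each other. A word found in several of them can be copies of 1 sequence. The shares over all windows are therefore a description and no test of enrichment.

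Cyp3a41a and Cyp3a11 shared the FOXA word, the HNF4A word and AGTTCA, and Cyp3a11 was above the floor in all 6 libraries. Cyp3a41a was listed at 0 in all 6, a value that depends on how reads shared with Cyp3a41b were counted, so words and levels cannot be compared for it. Over the whole upstream stretch, Cyp3a25 was 94.8% identical to Cyp3a59 and 88.9% to Cyp3a57. Cyp3a11 was 71.7% identical to Cyp3a41a and to Cyp3a44. Cyp3a13 was at most 56.2% identical to any other member.

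Total estimated counts ranged from 65916573 to 69245895 per library, a ratio of 1.05. The floor, below which a count is not told from 0, was 12 estimated counts or 0.173 to 0.182 CPM (the count scaled to the total of the library), and it assumes that 4 units stand for 1 fragment. Levels are compared between members as FPKM, scaled by the authors per gene length, and within a member as estimated counts or CPM. By this floor, 5 of 9 members were above it in every library of at least 1 group, namely Cyp3a11, Cyp3a13, Cyp3a16, Cyp3a25 and Cyp3a59. The other 4, Cyp3a41a, Cyp3a41b, Cyp3a44 and Cyp3a57, never exceeded the floor.

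**Figure D1:**
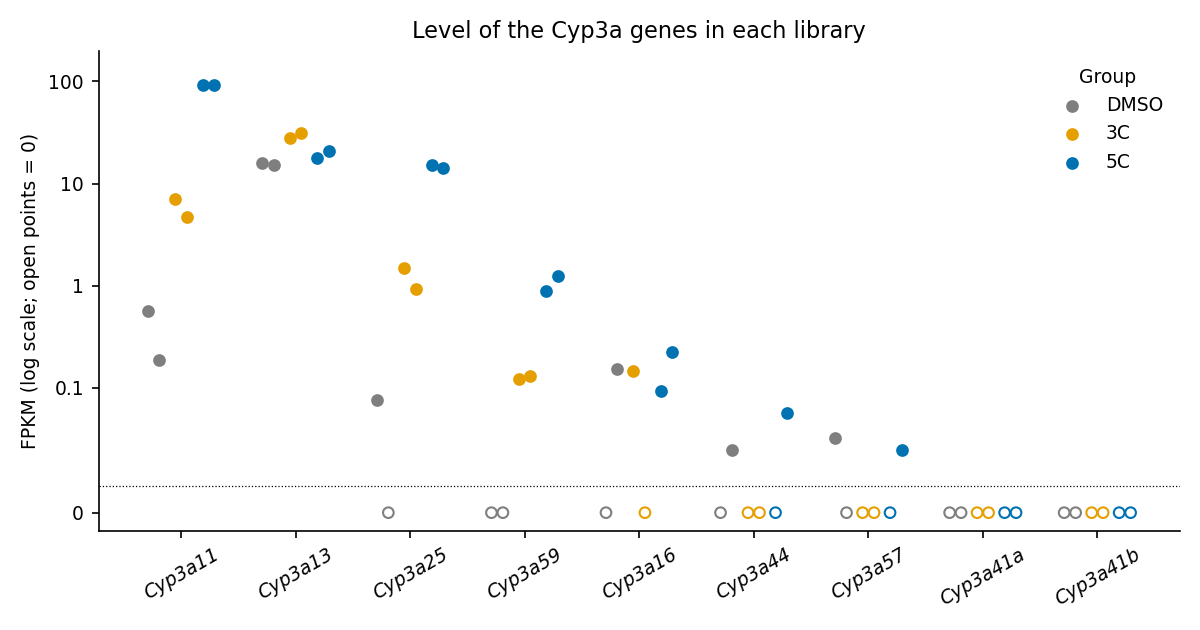
Level of the 9 Cyp3a genes in each library, as FPKM on a log axis; each point is 1 library, 2 per group, and open points below the dotted line are listed at 0. Cyp3a11 ran from 0.186 FPKM in a DMSO library to 92.6 FPKM in a 5C library, Cyp3a13 stayed between 15.1 and 31.3 FPKM, and Cyp3a41a and Cyp3a41b were listed at 0 in all 6 libraries.

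The family as a whole was higher in both cocktails, and its makeup turned over. The FPKM summed over the members were 16.4 and 15.5 in DMSO, 36.9 and 37.1 in 3C, and 126 and 129 in 5C. In DMSO, Cyp3a13 made up 95.9% and 97.7% of this sum. In 3C its share was 76.1% and 84.4%, and in 5C it was 14.1% and 16.1%. Cyp3a13 was thus the most abundant member in all libraries of DMSO and 3C, and Cyp3a11 in both libraries of 5C. The share of Cyp3a11 was 2.31% ± 1.57 (SD, n = 2) in DMSO, 16.0% ± 4.49 in 3C and 72.4% ± 1.09 in 5C. Cyp3a25 had 0.233% ± 0.330 in DMSO, 3.28% ± 1.11 in 3C and 11.5% ± 0.625 in 5C. The ranges of the shares of Cyp3a11, Cyp3a13 and Cyp3a25 did not overlap between any groups. With 2 libraries per group, ranges can separate without a difference, and how many of all genes do so was not counted. The same limit holds for every statement on overlap below. These shares are parts of the same sum, so they are not separate results. With 2 libraries per group an exact permutation test cannot reach a p under 0.05, so the shares are given as a description.

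**Figure D2:**
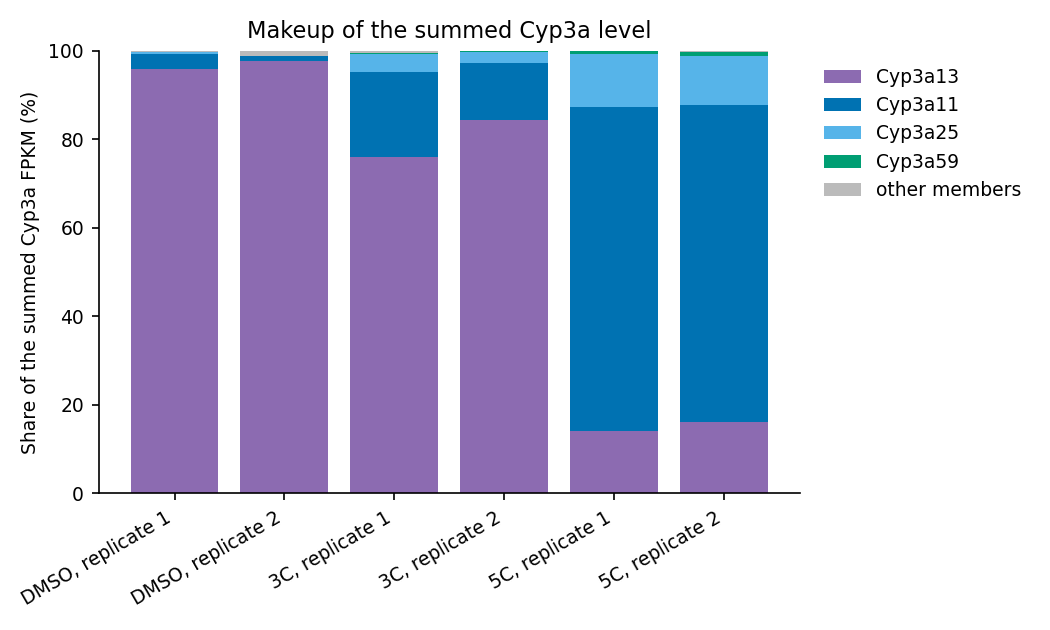
Share of each Cyp3a gene in the summed Cyp3a FPKM of each library, in percent, as stacked bars that start at 0; the 5 members not named in the legend are drawn together. Cyp3a13 fills 95.9% and 97.7% of the bars of DMSO and 14.1% and 16.1% of the bars of 5C, where Cyp3a11 fills 73.2% and 71.6%.

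Cyp3a11, Cyp3a25 and Cyp3a59 were called higher in 5C than in DMSO, in 3C than in DMSO and in 5C than in 3C, and no member was called lower. Called means an edgeR adjusted p under 0.05 with an absolute log2 fold change above 1. Of the 9 members, 5 passed the filter on low counts and were tested, and the filter keeps a gene that is high in a single group. The 3 members called compare, for 5C against DMSO, with 7.3% of all 19135 tested genes called higher and 4.42% called lower. For 3C against DMSO, where again 3 members were called higher, the shares over all genes were 5.83% higher and 3.62% lower. For 5C against 3C, with 3 members, they were 2.16% higher and 0.852% lower. The comparisons with DMSO share their control libraries and are not independent.

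**Figure D3:**
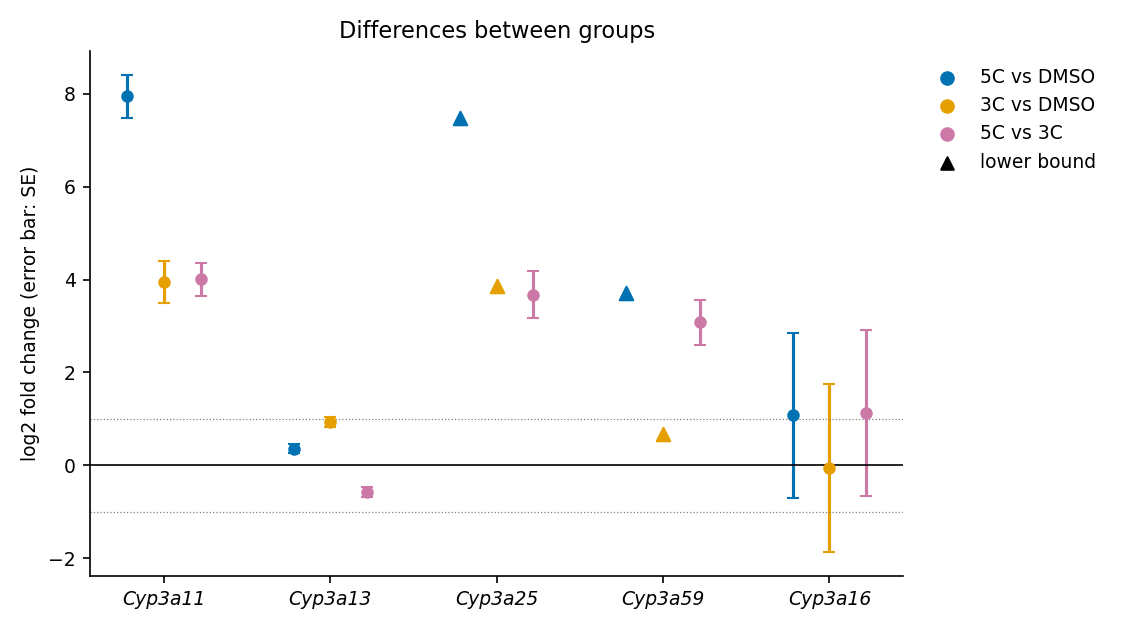
Log2 fold change of the 5 tested Cyp3a genes in the 3 comparisons; points with bars are edgeR values with their SE, triangles are lower bounds against the floor where DMSO was at or under it, and dotted lines mark the fold limit of calls. Cyp3a11 has 7.95, 3.95 and 4.005, Cyp3a13 has 0.36, 0.93 and -0.57, and the bars of Cyp3a16 span 0.

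Cyp3a11, the main drug-oxidizing Cyp3a of the adult mouse liver, reached the highest level of any member. Its estimated counts were 97 and 34 in DMSO, 1240 and 841 in 3C, and 16335 and 16917 in 5C. No groups overlapped, and 3C lay between DMSO and 5C. The means were 0.980 ± 0.657 CPM (SD, n = 2) in DMSO, 15.5 ± 4.52 CPM in 3C and 240 ± 5.51 CPM in 5C. The log2 fold change of 5C against DMSO was 7.95 (SE 0.47, edgeR adjusted p = 0.000441), that of 3C against DMSO was 3.95 (SE 0.45, adjusted p = 0.00483) and that of 5C against 3C was 4.005 (SE 0.36, adjusted p = 0.00525). Cyp3a11 was called higher in each of the 3 comparisons. The 95% interval of the step from DMSO to 3C was 2.75 to 5.15 on the log2 scale, and that of the step from 3C to 5C was 3.04 to 4.97. Both steps rest on the same 3C libraries, and their difference was not tested.

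Cyp3a25, a further liver member of the cluster, was at or under the floor in DMSO, with 12 and 0 estimated counts. It reached 224 and 127 in 3C and 2260 and 2206 in 5C. The groups did not overlap, and the order DMSO, 3C, 5C was that of Cyp3a11. Against the floor, Cyp3a25 was at least 179-fold higher in 5C (edgeR adjusted p = 0.000641) and at least 14.5-fold higher in 3C (adjusted p = 0.00806). Both p-values belong to the edgeR test on the counts and not to the bounds. From 3C to 5C, Cyp3a25 rose by a log2 fold change of 3.67 (SE 0.51, adjusted p = 0.00994). That call was lost with DESeq2 (adjusted p = 0.0538) and when 3C replicate 2, 5C replicate 1 or 5C replicate 2 was left out (edgeR adjusted p = 0.0641, 0.0730 and 0.0831). The ratio of Cyp3a11 to Cyp3a25 in FPKM was 4.72 and 5.13 in 3C and 6.13 and 6.48 in 5C.

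Cyp3a59 was the lowest of the members that were called. It had 0 estimated counts in both DMSO libraries, 19 and 20 in 3C, and 134 and 195 in 5C, and the groups did not overlap. It was at least 13.2-fold higher in 5C than the floor that bounded DMSO (edgeR adjusted p = 7.05e-05) and at least 1.61-fold higher in 3C (adjusted p = 0.00125). These p-values belong to the edgeR test on the counts and not to the bounds. For 3C the bound was 0.685 on the log2 scale, below the fold limit. The call of Cyp3a59 in 3C against DMSO thus rests on the edgeR log2 fold change of 7.28 over counts of 0. The 3C libraries lie close to the floor of 12, and limma on log2(FPKM + 1) did not call that difference (adjusted p = 0.471). From 3C to 5C the log2 fold change was 3.08 (SE 0.48, adjusted p = 0.00543), and this call was lost without 5C replicate 2 (edgeR adjusted p = 0.0732) and with limma on log2(FPKM + 1), where the change of 0.87 stayed below the fold limit. In FPKM, Cyp3a25 stood 12.3 and 7.10 times above Cyp3a59 in 3C and 17.1 and 11.4 times above it in 5C. When Cyp3a25 and Cyp3a59 were summed as 1 feature, that feature was called higher in all 3 comparisons.

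Cyp3a13, the member outside the cluster, had another course. Its estimated counts were 3365 and 3328 in DMSO, 6204 and 6980 in 3C, and 3980 and 4807 in 5C. The groups did not overlap, and 3C was the highest group. The means were 50.3 ± 0.272 CPM (SD, n = 2) in DMSO, 98.0 ± 6.11 CPM in 3C and 63.5 ± 8.34 CPM in 5C. The log2 fold change was 0.93 for 3C against DMSO (SE 0.10, edgeR adjusted p = 0.000185), 0.36 for 5C against DMSO (SE 0.10, adjusted p = 0.0283) and -0.57 for 5C against 3C (SE 0.10, adjusted p = 0.00664). All 3 adjusted p-values were under 0.05, though not in every setting, and no absolute change was above 1 on the log2 scale, so Cyp3a13 was not called in any comparison. For 5C against DMSO the adjusted p was 0.185 without 5C replicate 2, with a log2 fold change of 0.20, and 0.00642 without 5C replicate 1, with 0.50. It was 0.104 and 0.0685 without DMSO replicate 1 or 2, and 0.0579 with limma on log2(FPKM + 1). For 5C against 3C the edgeR adjusted p was 0.0666 without 3C replicate 2. Its sign in each comparison was the same under all 20 alternatives. For 5C against 3C its 95% interval, from -0.80 to -0.34, lay below 0, where that of Cyp3a11 ran from 3.04 to 4.97. In FPKM, Cyp3a13 stood 28.03 and 81.2 times above Cyp3a11 in DMSO and 3.97 and 6.59 times above it in 3C. In 5C, Cyp3a11 stood 5.18 and 4.44 times above Cyp3a13.

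Cyp3a16, the member known from the perinatal liver, was near the floor throughout. Its estimated counts were 0 and 20 in DMSO, 20 and 0 in 3C, and 13 and 31 in 5C, so all groups overlapped. Its log2 fold change was 1.08 for 5C against DMSO (SE 1.78, 95% interval -3.01 to 5.16, edgeR adjusted p = 0.719), and a difference was not detectable at this depth. For 3C against DMSO the log2 fold change was -0.05 (SE 1.81, adjusted p = 0.989), with a direction that depended on the replicate left out.

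The remaining 4 members gave next to no counts. Cyp3a41a and Cyp3a41b, the pair known from female liver, were listed at 0 in all 6 libraries, which allows up to 0.182 CPM in the shallowest library. Cyp3a44 had 4 estimated counts in DMSO replicate 2 and 9 in 5C replicate 2, and 0 in the other 4 libraries. Cyp3a57 had 5 in DMSO replicate 1 and 4 in 5C replicate 2, and 0 in the other 4. None passed the filter on low counts, and no fold is given for them. Cyp3a41a and Cyp3a41b share nearly all of their words with each other, so their values of 0 depend on how reads with several matches were counted and do not show that the genes were silent. The labels do not give the sex of the mice, and the study's methods describe use of both sexes without assigning them to these libraries. The X-linked Xist RNA, which marks an inactive X chromosome, was at 365 to 618 CPM in all libraries, and the Y-linked Ddx3y, Eif2s3y, Kdm5d and Uty were listed at 0 in all 6.

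Markers of cell types were read beside these values, because in bulk RNA fewer cells of a type and less RNA per cell cannot be told apart. The libraries are labelled hepatocytes, and Alb, the gene of albumin, was at 1182 to 10400 CPM in them. Of 15 adult hepatocyte markers tested, 14 passed as higher for 5C against DMSO, 15 for 3C against DMSO and 4 for 5C against 3C. None was called lower, and the median log2 fold changes were 2.78, 2.47 and 0.33, against 0.00, 0.01 and -0.01 over all genes. Their summed level was 3025 to 3376 CPM in DMSO, 14852 to 15434 CPM in 3C and 14725 to 20348 CPM in 5C. Cyp3a11 therefore differed from DMSO by more than the median marker in both cocktails, and from 3C to 5C it rose while the marker sums of 3C and 5C overlapped.

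Relative to this sum the members diverged. Per 1000 CPM of adult hepatocyte markers, Cyp3a11 had 0.428 and 0.171 CPM in DMSO, 1.26 and 0.799 CPM in 3C, and 16.1 and 12.0 CPM in 5C. Cyp3a13 had 14.8 and 16.7 CPM in DMSO, 6.31 and 6.63 CPM in 3C, and 3.91 and 3.41 CPM in 5C. On this scale Cyp3a11 was highest in 5C and Cyp3a13 was highest in DMSO, with no overlap between groups for either. The DMSO maximum of Cyp3a13 lies in the divisor, since its own CPM was lowest in DMSO and the sum was higher in both cocktails. Alb alone made up 1357 of 3376 CPM of this sum in DMSO replicate 1 and 10400 of 20348 CPM in 5C replicate 2. Cyp3a25 had 0.0529 and 0 CPM in DMSO, 0.228 and 0.121 CPM in 3C, and 2.22 and 1.57 CPM in 5C. The ratios are a description and were not tested.

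**Figure D4:**
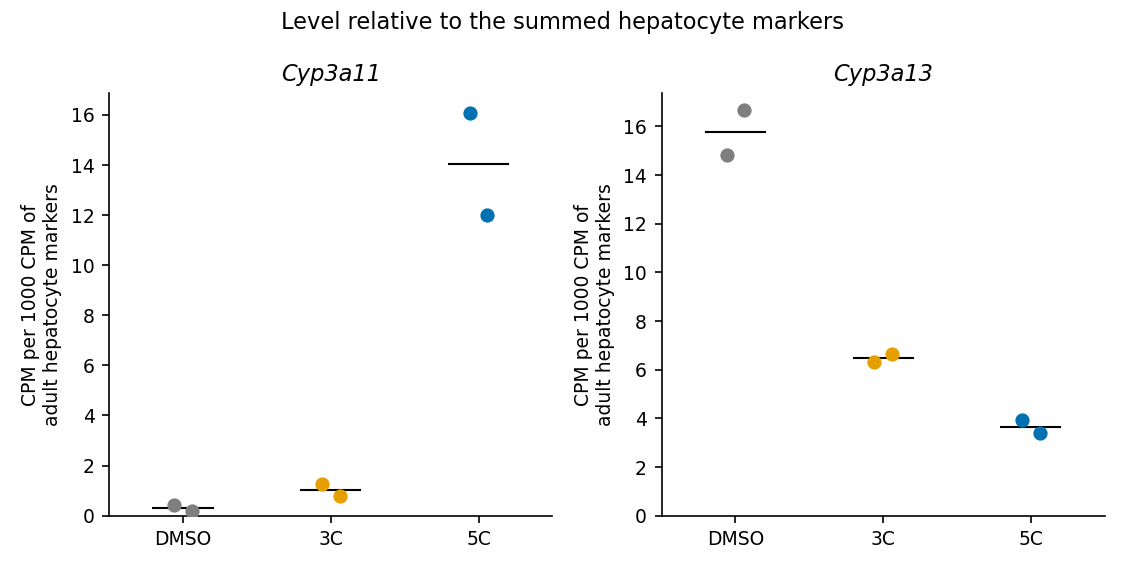
Cyp3a11 and Cyp3a13 in CPM per 1000 CPM of the summed adult hepatocyte markers, with 1 point per library, a line at the mean of the 2 libraries and axes that start at 0. Cyp3a11 is highest in 5C (16.1 and 12.0) and Cyp3a13 is highest in DMSO (14.8 and 16.7).

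Markers of other cell types were also present. Of 10 macrophage markers, 8 were called lower than DMSO in either cocktail, and their sum was 10641 and 11359 CPM in DMSO, 3653 and 3668 CPM in 3C, and 2416 and 2357 CPM in 5C. Of 10 stellate and fibroblast markers, 4 passed as higher and 0 as lower for 5C against DMSO, and 1 as higher and 2 as lower for 3C. Their sum was highest in 5C, with 7685 and 6544 CPM in DMSO, 6154 and 6185 CPM in 3C, and 10333 and 10943 CPM in 5C. Of 7 endothelial markers tested, 4 passed as higher and 1 as lower for 5C against DMSO, and 2 and 1 for 3C. The sum of the endothelial list was highest in DMSO. It was 428 and 452 CPM there, 182 and 216 CPM in 3C, and 239 and 336 CPM in 5C. Cdh5, the cadherin of endothelial junctions, was at 1.25 and 1.06 CPM in DMSO, 6.45 and 14.9 CPM in 3C, and 43.3 and 72.2 CPM in 5C, and Pecam1 was at 0.878 and 0.698, 3.11 and 8.77, and 22.3 and 41.4 CPM in the same order. Cdh5 was called higher in all 3 comparisons and Pecam1 in both with DMSO, so both ran in the order of Cyp3a11 with no overlap between groups. The sum of the list did not run in that order, and Eng and Stab2 were not called for 5C against DMSO. Lyve1 was the one called lower, at 309 and 319 CPM in DMSO and 48.8 and 66.4 CPM in 5C. Clec4g, a marker of liver sinusoids, was listed at 0 in all libraries except 3C replicate 2. Of 8 cholangiocyte markers, 4 were called higher in 5C and 6 in 3C than in DMSO, with 0 lower. Their sums of 2425 to 3782 CPM were mostly Spp1, which was not called for 5C against DMSO (log2 fold change -0.43). Krt7 was at 37.6 and 34.1 CPM in DMSO, 124 and 125 CPM in 3C, and 146 and 129 CPM in 5C. Of 6 fetal hepatocyte markers, 5 were called higher in each cocktail than in DMSO, among them Afp. The part of these markers in the levels of the Cyp3a genes was not tested. Because Cyp3a genes are also expressed in the gut, intestinal markers were read too. Of 8, 4 were tested, and 3 passed as higher and 0 as lower for either cocktail against DMSO, with sums of 6.12 and 7.86 CPM in DMSO and 20.2 to 26.9 CPM in the cocktails. Fabp2, a fatty acid binding protein, was at 0.417 and 0.273 CPM in DMSO, 1.45 and 2.38 CPM in 3C, and 3.98 and 5.55 CPM in 5C, and was called higher in all 3 comparisons. Slc5a1, a glucose transporter, was called higher in both cocktails than in DMSO, and Lgals4 was called higher in 5C than in DMSO (log2 fold change 1.27). Cdx2, Cdx1 and Sis were listed at 0 in all 6 libraries. The part of the intestinal markers in the levels of the Cyp3a genes was not tested.

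Among 17 known regulators of Cyp3a genes, 6 passed as higher and 1 as lower for 5C against DMSO, and 7 as higher and 0 as lower for 3C against DMSO. The median log2 fold change was 0.48 in both comparisons, against 0.00 and 0.01 over all genes. Nr1i2, which encodes PXR, had 7.79 and 7.74 CPM in DMSO, 31.4 and 30.8 CPM in 3C, and 27.7 and 29.98 CPM in 5C. It rose by 1.97 on the log2 scale in 3C (SE 0.11, edgeR adjusted p = 4.36e-06) and by 1.91 in 5C (SE 0.11, adjusted p = 2.72e-06). Between 5C and 3C it differed by -0.06 (SE 0.10, adjusted p = 0.808), with a 95% interval of -0.29 to 0.17. Nr1i3, which encodes CAR, was low, with 0.536 and 0.592 CPM in DMSO, 2.14 and 1.17 CPM in 3C, and 2.20 and 3.13 CPM in 5C. It was called higher in both cocktails than in DMSO, and between 5C and 3C its log2 fold change was 0.74 (SE 0.39, edgeR adjusted p = 0.293).

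Several hepatocyte factors on the list were called higher than DMSO. Hnf4a was at 99.2 and 90.3 CPM in DMSO, 260 and 247 CPM in 3C, and 198 and 187 CPM in 5C, and it was called higher in both cocktails (log2 fold change 1.39 for 3C, 1.04 for 5C). Foxa3, at 1.33 for 3C and 1.06 for 5C, was called in both too. Onecut1 and Nr0b2, which encodes the repressor SHP, were called higher in both as well. Cebpa had a log2 fold change of -0.57 in 5C (adjusted p = 0.00026) and -0.12 in 3C (adjusted p = 0.27), and was not called. Nr3c1, the glucocorticoid receptor, had -0.03 in 5C and -0.05 in 3C and was not called. From 3C to 5C, the step in which Cyp3a11 rose by 4.005 on the log2 scale, the regulators Vdr (1.14, adjusted p = 0.00717) and Foxa2 (-1.18, adjusted p = 0.00185) were called, 1 in each direction, and the median of the 17 was -0.12.

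**Figure D5:**
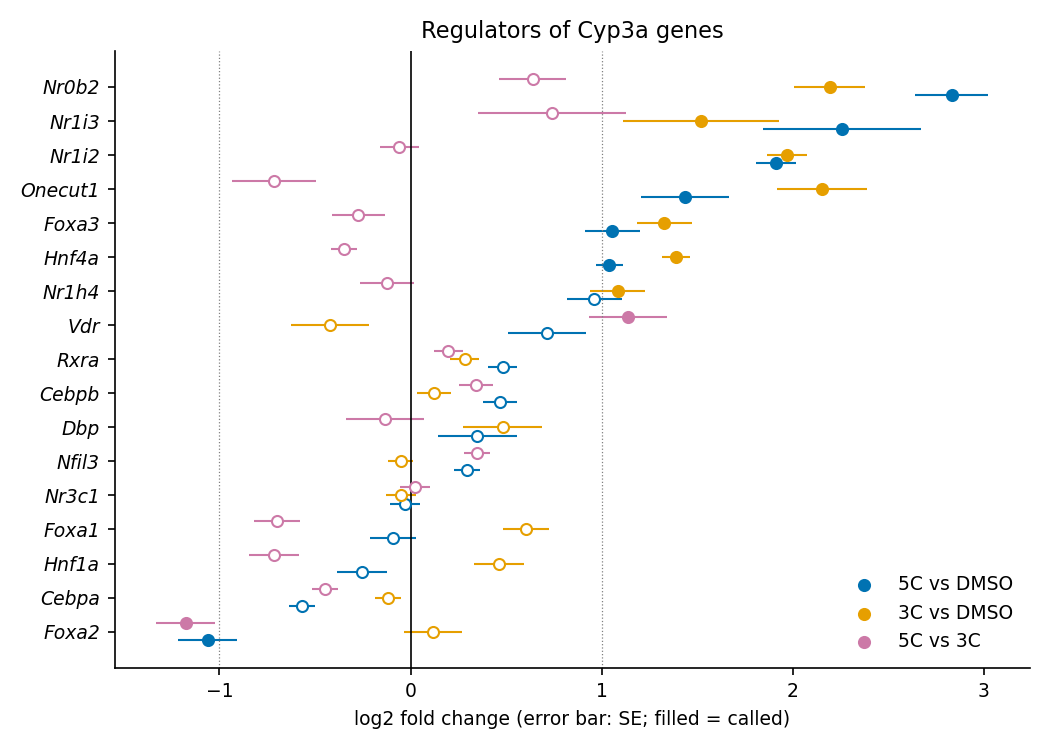
Log2 fold change of the 17 regulators of Cyp3a genes in the 3 comparisons, with their SE; filled points are called, and dotted lines mark the fold limit. Nr1i2 lies at 1.91 and 1.97 against DMSO and at -0.06 for 5C against 3C, and Foxa2 is called lower in 5C in both comparisons.

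The enzymes that serve Cyp3a proteins mostly stayed below the fold limit. Of the 6 electron transfer partners, 0 were called by edgeR in any comparison, although all 6 had an adjusted p under 0.05 for 5C against DMSO with changes below the fold limit. Por had 229 and 242 CPM in DMSO, 267 and 293 CPM in 3C, and 329 and 322 CPM in 5C, which differed by 0.48 on the log2 scale between 5C and DMSO (adjusted p = 0.00121). Cyb5a differed from DMSO by 0.93 for 5C and 0.79 for 3C on the same scale. Of 8 genes of heme synthesis, Alas1, the rate-limiting enzyme, was the one called, with 67.8 and 67.6 CPM in DMSO, 101 and 101 CPM in 3C, and 161 and 161 CPM in 5C. It rose by 1.27 on the log2 scale in 5C against DMSO (SE 0.06, edgeR adjusted p = 1.3e-06), and its changes of 0.55 in 3C against DMSO and 0.72 in 5C against 3C stayed below the fold limit.

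Other genes known as targets of PXR and CAR were compared with the family. Of 20, 10 passed as higher for 5C against DMSO, 11 for 3C against DMSO and 6 for 5C against 3C, with 0 lower each time and median log2 fold changes of 3.59, 2.38 and 0.42. Those called in all 3 comparisons were Cyp2b10, Cyp2c29, Cyp2c50, Ces2a, Slco1a4 and Ugt1a1. Cyp2b10, the classical CAR target, had 3.84 and 2.26 CPM in DMSO, 20.6 and 16.3 CPM in 3C, and 78.8 and 78.2 CPM in 5C. From 3C to 5C these 6 genes rose by 1.69 to 2.66 on the log2 scale, below the 4.005 of Cyp3a11. The counts of Cyp2c29, Cyp2c50, Ces2a and Ugt1a1, and likewise of Ugt1a5 and Sult2a2, are uncertain, since these genes belong to families with closely related copies. The transporters Abcc2, Abcc3 and Abcb1a were not called, with log2 fold changes of -0.27, 0.23 and 0.33 for 5C against DMSO. For 3C against DMSO the changes were 0.50, 0.77 and 0.08 (edgeR adjusted p = 0.0023, 3.96e-05 and 0.615). Abcc2 and Abcc3 were thus highest in 3C, though below the fold limit. As a description, the genes whose levels over the 6 libraries were most like those of Cyp3a11, by the distance of centred log2 CPM among 14390 genes, were Hsd17b6, Ugt1a5, Asgr1, Cyp2c29 and Sult2a2, at distances of 1.13 to 2.06. Those most like Cyp3a13 were Vldlr, Retreg1, 0610040J01Rik, Magi1 and Tead4, at distances of 0.196 to 0.257.

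Genes of the liver with zonal or sex-biased expression were read because Cyp3a11 is a pericentral gene and several members differ by sex. Of 11 pericentral genes tested, 6 passed as higher and 1 as lower for 5C against DMSO, and of 10 periportal genes 6 passed as higher and 0 as lower. The pericentral gene called lower was Glul, at 491 and 510 CPM in DMSO and 198 and 213 CPM in 5C. Of 8 female-biased genes tested 4, and of 9 male-biased genes 4, passed as higher for 5C against DMSO, with 0 lower in both lists.

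The neighbours of the members on chromosome 5 were compared last. Beside the cluster, Zscan25, Zfp655 and Zkscan5 on one side were not called in any comparison, with log2 fold changes between -0.18 and 0.04, and Gm5565, Gm6309 and 1700001J03Rik on the other side were listed at 0 in all libraries. Beside Cyp3a13, Azgp1, which encodes a secreted glycoprotein of liver, was called higher than DMSO in both. It had 33.3 ± 3.08 CPM (SD, n = 2) in DMSO, 191 ± 5.81 CPM in 3C and 142 ± 22.8 CPM in 5C, which are 2.49 and 2.12 above DMSO on the log2 scale. The 4 other tested neighbours of Cyp3a13, Pilrb2, Pilrb1, Pilra and Gjc3, were not called in any comparison.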

How the data were processed

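RNA-seq of 6 libraries, 2 each for DMSO, 3C and 5C, was analysed from 2 deposited tables. The authors mapped to GRCm39, and the labels name featureCounts, Subread and DESeq2 without versions or roles. The aligner settings, annotation release and use of strand are not given in the sources used here. The deposited count table holds estimated counts, whole numbers that were not normalized. Low values pile up at 4 (4816 entries, beside 3121 of 3 and 2303 of 5) and 8, with no excess at 16 (868, beside 888 of 15), and the most frequent is 1 (6338 entries). The units per fragment are therefore unknown, 4 was assumed, and floors and lower bounds rest on this. The FPKM were scaled by the authors for gene length and library total. The tables shared 52257 gene IDs, and 51722 IDs of the count table matched the GENCODE annotation of GRCm39 used for positions and transcripts.

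Genes passing filterByExpr were tested in edgeR 4.0.16 (R 4.3.3) by its quasi-likelihood method (TMM, robust), with all 6 libraries, 1 coefficient per group and 3 residual degrees of freedom, and Benjamini-Hochberg adjustment over 19135 genes. Unless another tool is named, adjusted p-values are from this test. The SE is the one the F statistic implies. Floors cover counting error only. Words and alignments were computed with biopython 1.88, and all 9 members had a RefSeq promoter window. Protein sequences were not used here. Alternatives, including DESeq2 1.42.0 and limma 3.58.1 on log2 FPKM with a pseudocount of 1 or 0.1, are given in the closing section. The steps were tested on simulated data. Figures were drawn with matplotlib 3.10.9.

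The members and lists were chosen with earlier results of these data known. All members are named. Of each list, counts are given, and genes were named by how many comparisons called them and then by mean CPM, with regulators, partners, Alas1, Xist, Ddx3y, Afp and Alb named whatever they showed. Abcb1a, Abcc2 and Abcc3 were named after their values were seen. Clec4g, Eng, Stab2, Spp1, Cdx2, Cdx1, Sis and the other Y-linked genes were named too, without regard to calls. Likeness used genes of at least 1 CPM with a prior count of 2.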

Additional observations from a re-analysis of the deposited data

How the results depend on the processing

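The number of members called was 3 in each comparison and stayed at 2 to 4 under all but 3 settings. With at least 10 counts required in every library, Cyp3a11 and Cyp3a13 alone could be tested and 1 member was called in each comparison. Tested against a log2 fold change of 1, 0 members were called in 5C against 3C (Cyp3a11 adjusted p = 0.1), while 38 of all genes were called. Without one replicate at a time, 3 members were called against DMSO for either cocktail and 1 to 3 in 5C against 3C; without 5C replicate 2 the 1 left was Cyp3a11. Log2 fold changes of Cyp3a11 with a library left out ranged from 7.41 to 8.87 for 5C against DMSO, from 3.41 to 4.86 for 3C against DMSO and from 3.74 to 4.34 for 5C against 3C. DESeq2 called 2 members in 5C against 3C, and limma on log2 FPKM called 2 in 3C against DMSO and, with a pseudocount of 1, 2 in 5C against 3C. Without a limit on the fold change, 4 members passed in each comparison, with Cyp3a13 added, and of all genes 5485, 4689 and 2423 passed, for 5C and 3C over DMSO and for 5C over 3C, where the main counts were 2242, 1809 and 576. Limma on log2(FPKM + 1) called 1229, 958 and 258 genes.

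The log2 fold change of Cyp3a16 in 3C against DMSO turned to 0.59 with the replicate block, was 6.35 without DMSO replicate 2, 0.94 without 3C replicate 2 and -6.39 without 3C replicate 1, and it passed no test. With a replicate block, 3 members were still called in each comparison. The labels do not say that a shared number marks a pair, and libraries of the same number did not deviate together from their group means (r of -0.03 to 0.02 across genes, which are not independent replicates). In CPM in place of FPKM, the share of Cyp3a11 in 5C was 70.9% and that of Cyp3a13 was 18.7%. Leaving out a replicate put the share of Cyp3a11 at 1.20% to 3.42% in DMSO, 12.8% to 19.2% in 3C and 71.6% to 73.2% in 5C, and that of Cyp3a13 at 95.9% to 97.7%, 76.1% to 84.4% and 14.1% to 16.1%.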
